A study of Sus scrofa with 4 samples.

Results

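Genes of the interferon response and of antiviral sensing were compared across porcine cells at the fibroblast, induced neural stem cell-like and pluripotent states. A list of 40 gene symbols, chosen with earlier results of these data known, defined the set. Of these, 37 were found by Ensembl identifier among the 25880 rows of the count table, 19280 of which held at least 1 count. IFIT3, OAS1 and XAF1 had no row of their own and are given no value. Of the 37 genes found, 35 passed the filter on low counts and were tested, and IRF7 and IRF9 did not pass it.

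Interferons are secreted cytokines that put cells on guard against viruses. Viral RNA is bound by sensors such as RIGI, IFIH1 and TLR3, whose signals lead through adaptors such as MAVS to the transcription factor IRF3 and to the making of type I interferon. Type I interferon binds the receptor chains IFNAR1 and IFNAR2, and a complex that contains STAT2 and IRF9 then switches on interferon-stimulated genes, among them the IFIT, MX and OAS families. Pluripotent cells of mouse and human are known to respond weakly to interferon, whereas fibroblasts are a standard responsive cell.

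Bulk mRNA-seq of 4 libraries was used, all from ear skin-derived fibroblasts of 1 post-neonatal pig and their derivatives. The iPSC group held 2 clones at passage 3, which were mechanically isolated after culture in embryonic stem cell medium (ESM) to which activin A, transforming growth factor β1 and IWP2, an inhibitor of WNT secretion, had been added. The iNSLC library (induced neural stem cell-like cells, passage 1) came from fibroblasts transfected with the EP-B episomal vectors and cultured in NSM, a medium first used to bring primate pluripotent cells to a putative naive state. The fibroblast library (passage 1) was the untransfected starting culture. The vectors encoded human reprogramming factors and a dominant-negative form of mouse p53, and the iPSC clones descended from such transfected cells. The study looked for residual vectors only after further passages, beyond the one sequenced here. No library was labelled as exposed to a virus or to interferon. For marmoset cells, the paper describes a move onto mouse feeder cells when the induction medium was given. Its main text does not say whether the pig cultures had feeders. Medium, vector content and any feeder cells, and for the iPSC clones passage, changed together with the cell state and cannot be told apart from it.

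The libraries held 21640374 and 41296933 counts in iPSC clones 1 and 2, 25784594 in the iNSLCs and 62421521 in the fibroblasts. Levels are given in CPM, the counts of a gene relative to the library total after trimmed-mean (TMM) scaling, in the order iPSC clone 1, iPSC clone 2, iNSLC and fibroblast. The labels were checked against marker genes. Pluripotency markers (6 genes) summed to 1098 CPM in each iPSC clone, 436 in the iNSLCs and 0.950 in the fibroblasts, and fibroblast markers (6 genes) to 752, 743, 35968 and 118152 CPM. POU5F1 (OCT4), SOX2, LIN28A and NANOG were also encoded by the vectors in human form. Whether their rows include reads from the vectors was not tested. Of the markers not on the vectors, EPCAM had 247, 172, 58.1 and 0.561 CPM and TDGF1 8.32, 7.02, 1.12 and 0.0216 CPM. Neural stem cell markers (6 genes) summed to 775, 886, 769 and 52.7 CPM, a sum carried by NES and SOX2. FABP7 had 15.0 and 22.5 CPM in the clones, 83.0 CPM in iNSLCs and 0 CPM in fibroblasts. SOX1, MSI1 and PAX6 were also higher in iNSLCs than in both clones, but PAX6 was highest in fibroblasts (21.5 CPM, against 14.6 CPM in iNSLCs). NES and SOX2 were lower in iNSLCs than in both clones (NES 384 CPM against 461 and 505, SOX2 134 CPM against 211 and 254). The iNSLC library held fibroblast transcripts well above the iPSC clones. Blood and immune markers (8 of 8 found) summed to 8.82, 8.46, 11.4 and 22.0 CPM, and CD3E, the defining T cell marker, had no count outside iPSC clone 2. In bulk RNA, fewer expressing cells and less RNA per cell cannot be told apart.

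Most of the genes were lowest in the iPSC clones. Of the 35 tested, 30 were lower in iPSCs than in fibroblasts, 0 were higher and 5 did not pass the test (edgeR quasi-likelihood test, Benjamini-Hochberg adjusted p under 0.05). In the same comparison 57.1% of the 15739 genes tested were called, with 27.5% of those tested lower and 29.6% higher in iPSCs. Against iNSLCs, 24 of the 35 were lower in iPSCs, 0 were higher and 11 did not pass, beside 28.1% of all genes called, 14.1% lower and 14.1% higher. No gene of the set was higher in iPSCs in either comparison with DESeq2 (0 genes) or at an unadjusted edgeR p under 0.05 (0 genes). With total counts in place of TMM scaling, 2 genes were higher than in fibroblasts at that unadjusted p and 0 after adjustment. The 2 comparisons share the iPSC libraries, and 23 genes of the set were called lower in both, a count given without a share over all genes. Residual variance came from the 2 iPSC clones alone, with 1 degree of freedom, and the lone iNSLC and fibroblast libraries were assumed to vary as the clones do. Since all cultures trace to 1 animal, the p-values measure the spread between these clones and nothing wider.

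**Figure D1:**
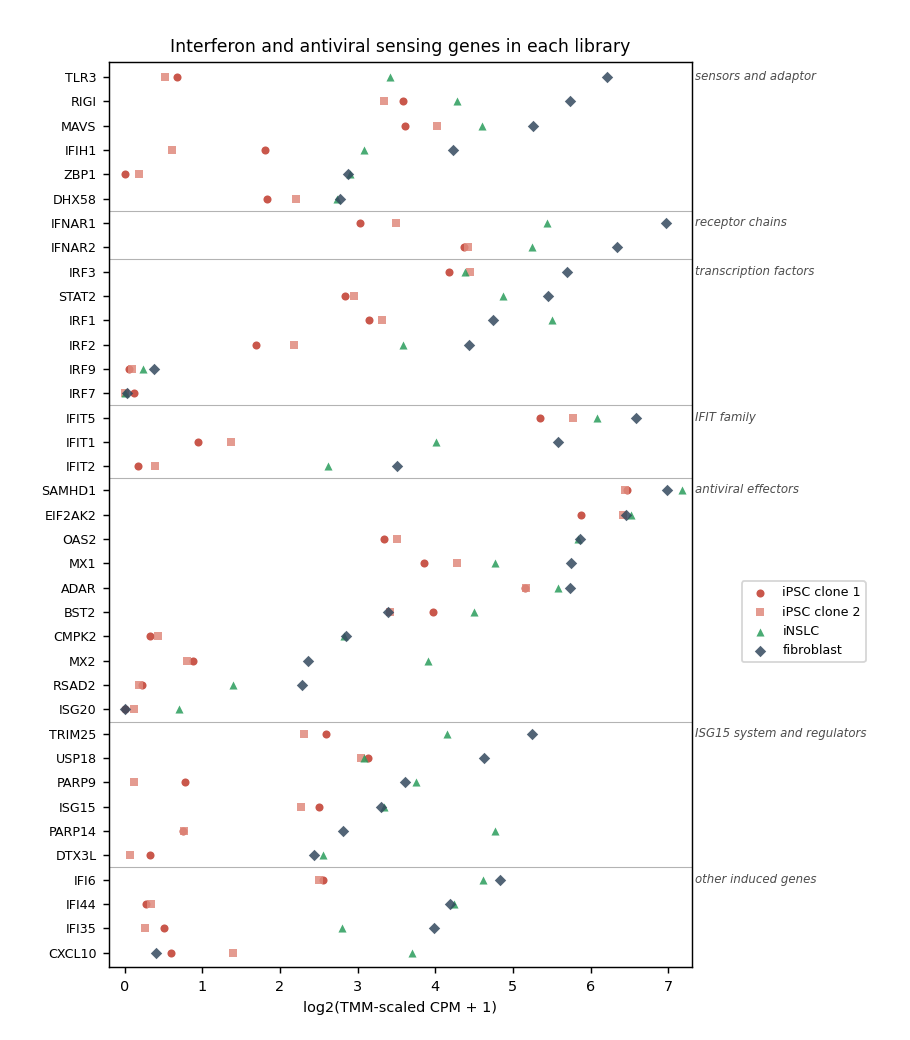
Levels of the 37 genes in each library, grouped by role and plotted as log2 of TMM-scaled CPM plus 1 on the x axis. Circles and squares are iPSC clones 1 and 2, triangles the iNSLCs and diamonds the fibroblasts. Both iPSC clones lay to the left of the other libraries for 30 of the 34 genes that reached 1 CPM in any library.

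Over the 34 genes that reached 1 CPM in any library, the median log2 ratio was -2.54 for iPSCs over fibroblasts (5.82-fold lower), beside a median of 0.05 over all 14137 genes that reached 1 CPM. For iPSCs over iNSLCs the median was -2.30 (4.91-fold lower), beside 0.01 over all genes. The ratio was below 0 for 32 and 33 of the 34 genes in these comparisons, beside 48.7% and 49.5% of all genes. Both iPSC clones lay below both other libraries for 30 of the 34, beside 27.5% of all genes, and none had both clones above the other libraries, as 28.8% of all genes did. The highest library was the fibroblasts for 22 genes (38.9% of all genes), the iNSLCs for 12 (24.2%) and an iPSC clone for 0 (36.9%). With total counts in place of TMM scaling these numbers became 16, 18 and 0, and 28 genes had both clones lowest. The shares of all genes given beside them hold for TMM scaling only and were not taken with total counts. The scaling matters for the comparison with fibroblasts. Scaling by total counts alone moved the median of all genes to 0.62 and that of the 34 interferon genes to -1.97, and fewer of them were then called, 26. Under that scaling the share of all called genes that were higher in iPSCs was 72.8%, against 51.9% with TMM scaling.

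**Figure D2:**
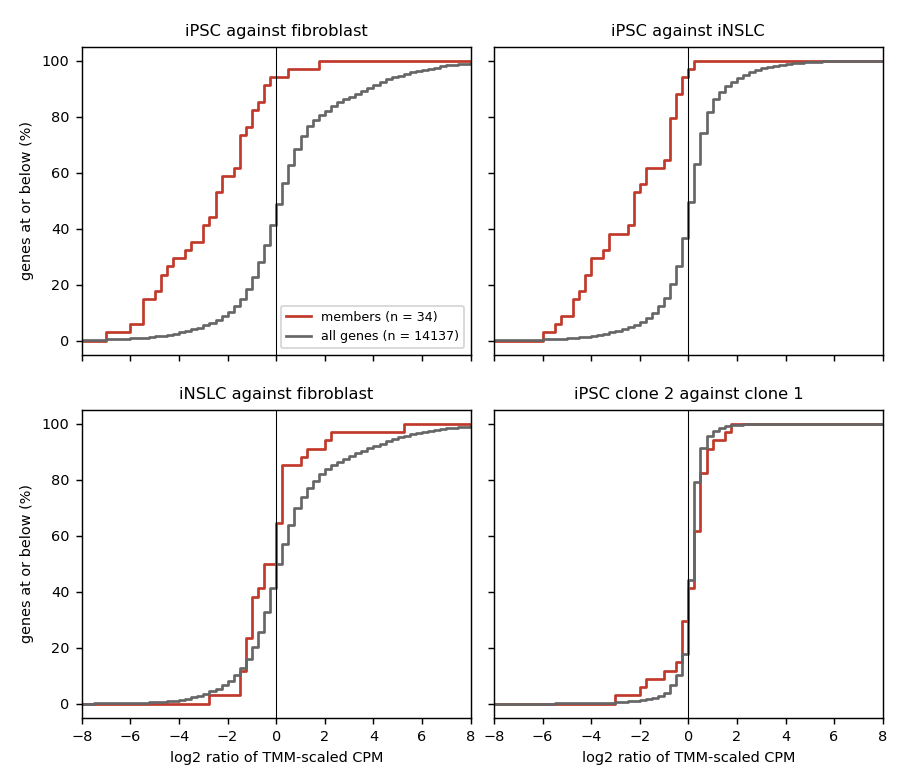
Share of genes (y axis, percent) at or below each log2 ratio of TMM-scaled CPM (x axis) for the 34 interferon genes that reached 1 CPM in any library (red) and all 14137 genes that did (grey). The interferon genes lay to the left of all genes in both iPSC comparisons, with medians of -2.54 and -2.30, and near them for iPSC clone 2 against clone 1, with medians of 0.05 and 0.03.

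The sensors of viral RNA were examined first. TLR3, the endosomal receptor for double-stranded RNA (ENSSSCG00000015801, Sscrofa11.1 chromosome 15, 46966079 to 46978023), had 0.591 and 0.437 CPM in iPSC clones 1 and 2, 9.63 CPM in iNSLCs and 72.9 CPM in fibroblasts. Both clones lay below the single iNSLC and fibroblast libraries, as they did for 27.5% of all genes, and close together. TLR3 was lower in iPSCs than in fibroblasts by a log2 ratio of -7.19 ± 0.24 (SE), a 146-fold difference (edgeR adjusted p = 0.000168), and 19.3-fold lower than in iNSLCs (edgeR adjusted p = 0.00189). RIGI, the cytosolic sensor of 5′-triphosphate RNA (ENSSSCG00000030408, chromosome 10, 33866114 to 33967141), kept a moderate level of 10.9 and 9.16 CPM in the iPSC clones, against 18.5 CPM in iNSLCs and 52.1 CPM in fibroblasts. It was 5.20-fold lower in iPSCs than in fibroblasts (edgeR adjusted p = 0.000787) and 1.84-fold lower than in iNSLCs (edgeR adjusted p = 0.0318).

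IFIH1, also known as MDA5, senses long double-stranded RNA. Its level was 2.49 CPM in iPSC clone 1, 0.524 CPM in iPSC clone 2, 7.43 CPM in iNSLCs and 17.7 CPM in fibroblasts. The clones differed 4.75-fold, with clone 2 the lower (95% exact counting interval 2.91 to 7.98). The fitted difference from fibroblasts was 12.5-fold lower in iPSCs (edgeR adjusted p = 0.0175). By the ratio of mean levels it was 33.8-fold lower without clone 1 and 7.13-fold lower without clone 2. Against iNSLCs the 5.23-fold lower level did not pass (edgeR adjusted p = 0.0933), although it did under DESeq2 (adjusted p = 0.0146). That difference was 14.2-fold without clone 1 and 2.98-fold without clone 2 by the ratio of mean levels.

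ZBP1, a sensor of Z-form nucleic acids linked to cell death, was nearly absent from the iPSC clones. It had 0 and 0.131 CPM in the clones (0 and 6 counts), against 6.46 CPM in iNSLCs and 6.31 CPM in fibroblasts. The fitted levels in iPSCs were 75.4-fold lower than in iNSLCs (edgeR adjusted p = 0.0103) and 73.7-fold lower than in fibroblasts (edgeR adjusted p = 0.00346), sizes that rest on those 6 counts. MAVS, the mitochondrial adaptor that relays RIGI and IFIH1 signals, had 11.2 and 15.2 CPM in the clones, 23.2 CPM in iNSLCs and 37.4 CPM in fibroblasts. It was 2.83-fold lower in iPSCs than in fibroblasts (edgeR adjusted p = 0.00559), and the 1.75-fold lower level against iNSLCs did not pass (edgeR adjusted p = 0.0648). DHX58, or LGP2, a regulator of the other sensors, had 2.58 and 3.61 CPM in the clones, 5.65 CPM in iNSLCs and 5.83 CPM in fibroblasts, and neither difference passed (edgeR adjusted p = 0.137 against iNSLCs and 0.0839 against fibroblasts).

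Both chains of the type I interferon receptor were lower in iPSCs. IFNAR1 (ENSSSCG00000033115, chromosome 13, 196925707 to 196950532) had 7.14 and 10.2 CPM in iPSC clones 1 and 2, 42.5 CPM in iNSLCs and 124 CPM in fibroblasts. Both clones lay below the single iNSLC and fibroblast libraries. Its level in iPSCs was 14.1-fold lower than in fibroblasts (log2 ratio -3.82 ± 0.23 SE, edgeR adjusted p = 0.000426) and 4.84-fold lower than in iNSLCs (edgeR adjusted p = 0.00540). On the TPM scale, which also divides by gene length, IFNAR1 was the most abundant of the 37 genes in fibroblasts at 110 TPM, while in iPSC clones 1 and 2 it stood at 8.31 and 12.1 TPM, places 13 and 8 among them. IFNAR2 (ENSSSCG00000036556, chromosome 13, 196766082 to 196884929) had 19.7 and 20.5 CPM in the clones, 37.1 CPM in iNSLCs and 80.1 CPM in fibroblasts. It was 3.98-fold lower in iPSCs than in fibroblasts (edgeR adjusted p = 0.000478) and 1.84-fold lower than in iNSLCs (edgeR adjusted p = 0.0132). In the IFNAR2 row, 18.0% of the exon bases lie within the span of IL10RB in RefSeq, a span that includes introns, so reads of that gene may be included.

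Among the transcription factors, all 4 that could be tested were lower in iPSCs than in fibroblasts, beside 27.5% of all genes tested. STAT2, a subunit of the interferon-activated transcription complex, had 6.16 and 6.75 CPM in the iPSC clones, 28.3 CPM in iNSLCs and 42.9 CPM in fibroblasts. Its iPSC level was 6.62-fold lower than that of fibroblasts (edgeR adjusted p = 0.000475) and 4.37-fold lower than that of iNSLCs (edgeR adjusted p = 0.00371). The annotated STAT2 exons share 49.4% of their bases with PAN2 and IL23A rows. IRF1, an activator of interferon and its target genes, was highest in the iNSLCs, with 7.85 and 8.89 CPM in the iPSC clones, 44.2 CPM in iNSLCs and 25.7 CPM in fibroblasts. It was 5.26-fold lower in iPSCs than in iNSLCs (edgeR adjusted p = 0.00302) and 3.06-fold lower than in fibroblasts (edgeR adjusted p = 0.00201). All of its exon bases (100%) lie within the span of SLC22A5 in RefSeq.

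IRF2, which binds the same sites as IRF1 and can repress them, followed the fibroblast pattern at 2.24 and 3.52 CPM in the iPSC clones, 11.0 CPM in iNSLCs and 20.6 CPM in fibroblasts. It was 3.78-fold lower in iPSCs than in iNSLCs (edgeR adjusted p = 0.0186) and 7.06-fold lower than in fibroblasts (edgeR adjusted p = 0.00233). IRF3, the factor that sensors activate by phosphorylation, behaved differently. Its 17.1 and 20.9 CPM in the iPSC clones enclosed the 19.9 CPM of the iNSLCs, and fibroblasts stood apart at 50.9 CPM. IRF3 was 2.67-fold lower in iPSCs than in fibroblasts (edgeR adjusted p = 0.00320), and its log2 ratio to iNSLCs was -0.07 ± 0.19 (SE, edgeR adjusted p = 0.814). In the IRF3 row, 16.0% of the exon bases lie within the span of BCL2L12 in RefSeq. IRF9, the DNA-binding subunit of the same complex as STAT2, had 1, 3, 5 and 14 counts across iPSC clones 1 and 2, iNSLCs and fibroblasts, and IRF7, the amplifier of interferon production, had 2, 0, 0 and 1. Neither was tested. Of their exon bases, 85.2% in IRF9 and 93.1% in IRF7 are shared with the rows of REC8 and PHRF1, so the rows may miss reads that fit more than 1 gene, and these counts say little of the true level.

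**Figure D3:**
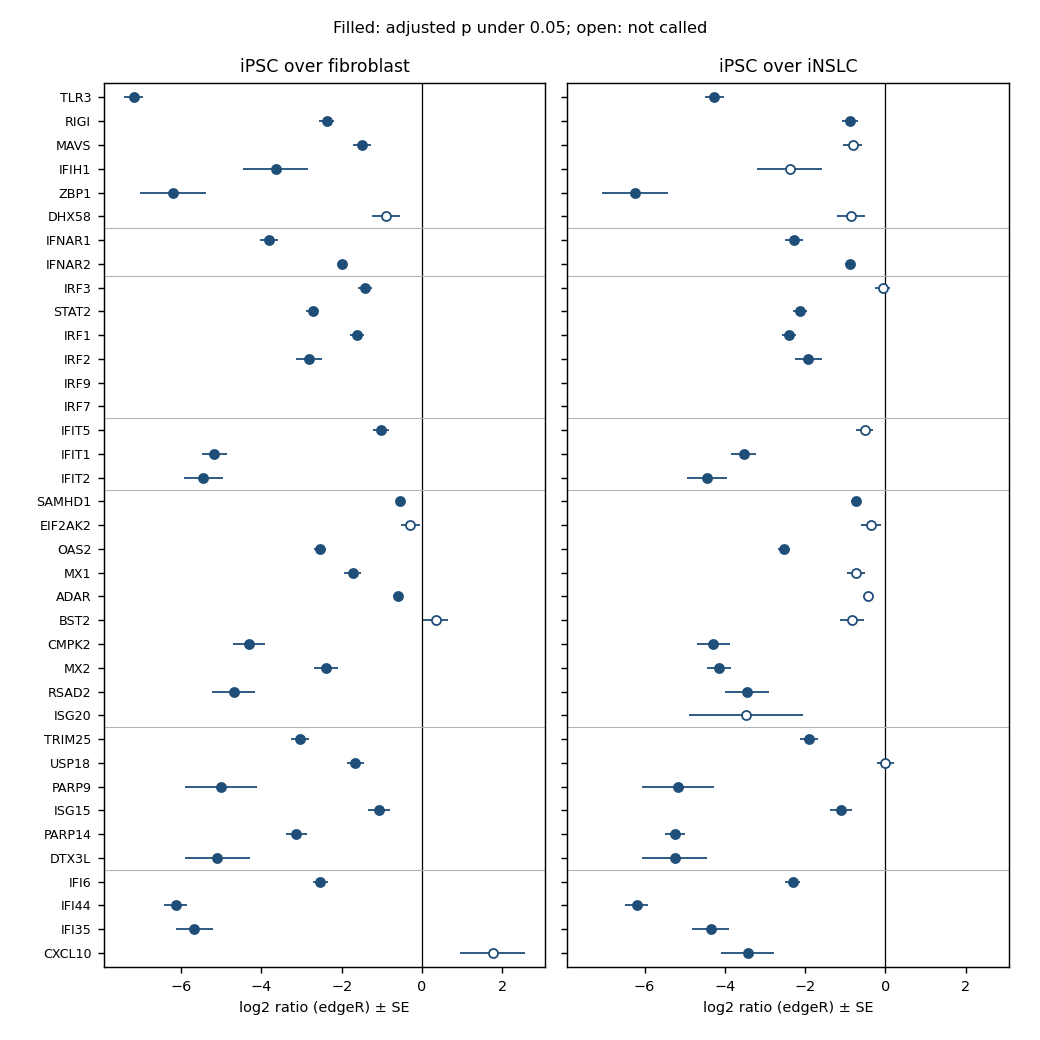
Fitted log2 ratio (x axis, edgeR) of iPSCs over fibroblasts (left) and of iPSCs over iNSLCs (right) for each gene, in the same order of roles. Bars are a standard error derived from the ratio and its F statistic. Filled points passed the adjusted p threshold of 0.05 and open points did not. Nearly all points lie left of 0, with TLR3 at -7.19 on the left and IFI44 at -6.19 and ZBP1 at -6.24 on the right. IRF7 and IRF9 were not tested, and ISG20 is not drawn on the left because it had no count in fibroblasts.

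The IFIT proteins bind foreign or unmodified RNA and block its translation. IFIT1 and IFIT2 were low in both iPSC clones and IFIT5 was not. IFIT1 (ENSSSCG00000010452, chromosome 14, 101213979 to 101251108) had 0.929 and 1.57 CPM in the iPSC clones, 15.0 CPM in iNSLCs and 46.8 CPM in fibroblasts. It was 36.0-fold lower in iPSCs than in fibroblasts (log2 ratio -5.17 ± 0.32 SE, edgeR adjusted p = 0.000457) and 11.6-fold lower than in iNSLCs (edgeR adjusted p = 0.00446). The span of IFIT3 in RefSeq covers 35.0% of the exon bases of this row, so it may hold IFIT3 reads, and the IFIT1 and IFIT2 rows both lie 100% within the span of LIPA. IFIT2 had 0.127 and 0.306 CPM in the clones, 5.16 CPM in iNSLCs and 10.4 CPM in fibroblasts. It was 21.8-fold lower in iPSCs than in iNSLCs (edgeR adjusted p = 0.00712) and 43.7-fold lower than in fibroblasts (edgeR adjusted p = 0.00121). By the ratio of mean levels, IFIT2 was 33.9-fold lower than in fibroblasts without clone 1 and 81.8-fold lower without clone 2, and the same ratios to iNSLCs were 16.9-fold and 40.8-fold lower.

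IFIT5 lies in the same cluster on chromosome 14 and held 39.6 and 53.8 CPM in the clones, 66.9 CPM in iNSLCs and 94.7 CPM in fibroblasts. Its iPSC level was 2.02-fold below that of fibroblasts (edgeR adjusted p = 0.0130), a call that was lost when libraries were scaled by total counts (log2 ratio -0.44, edgeR adjusted p = 0.122). The 1.43-fold lower level against iNSLCs did not pass (edgeR adjusted p = 0.133). In TPM, IFIT5 was the first or second most abundant of the 37 genes in each iPSC clone, at 40.1 TPM in clone 1 and 55.5 TPM in clone 2. In the IFIT5 row, 46.7% of the exon bases lie within the span of LOC100151816 in RefSeq, so reads of that gene may be included.

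Of the 10 antiviral effector genes, 7 were lower in iPSCs than in fibroblasts and 5 were lower than in iNSLCs. The shares of all tested genes called lower were 27.5% and 14.1%. OAS2, an enzyme that makes 2′-5′ oligoadenylate on double-stranded RNA and so activates RNase L, had 9.16 and 10.4 CPM in the iPSC clones, against 56.0 CPM in iNSLCs and 57.2 CPM in fibroblasts. With TMM scaling, iNSLCs and fibroblasts stood at one level and both clones below it. OAS2 was 5.72-fold lower in iPSCs than in iNSLCs (edgeR adjusted p = 0.00217) and 5.84-fold lower than in fibroblasts (edgeR adjusted p = 0.000413). The MX genes encode dynamin-like GTPases that trap viral nucleocapsids. MX1 had 13.5 and 18.3 CPM in the clones, 26.3 CPM in iNSLCs and 52.9 CPM in fibroblasts. It was 3.31-fold lower in iPSCs than in fibroblasts (edgeR adjusted p = 0.00319), and 1.65-fold below iNSLCs without passing the test (edgeR adjusted p = 0.0766).

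MX2 (ENSSSCG00000012076, chromosome 13, 204798302 to 204831975), its neighbour on chromosome 13, peaked in the iNSLCs, with 0.844 and 0.743 CPM in the iPSC clones, 14.0 CPM in iNSLCs and 4.15 CPM in fibroblasts. It was 17.7-fold lower in iPSCs than in iNSLCs (edgeR adjusted p = 0.00321) and 5.24-fold lower than in fibroblasts (edgeR adjusted p = 0.00334). RSAD2 (viperin) and CMPK2 are adjacent genes that together yield a chain-terminating nucleotide, and both were under 10 CPM in every library. CMPK2 had 0.253 and 0.350 CPM in the clones, 6.11 CPM in iNSLCs and 6.18 CPM in fibroblasts, 19.5-fold and 19.7-fold lower in iPSCs than in those states (edgeR adjusted p = 0.00504 and 0.00133). RSAD2 had 0.169 and 0.131 CPM in the clones, 1.64 CPM in iNSLCs and 3.87 CPM in fibroblasts, 11.0-fold and 25.8-fold lower in iPSCs (edgeR adjusted p = 0.0156 and 0.00229).

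SAMHD1, ADAR, EIF2AK2 and BST2 were expressed in every library. SAMHD1, which hydrolyses deoxynucleotides, had 87.2 and 85.9 CPM in the iPSC clones, 144 CPM in iNSLCs and 126 CPM in fibroblasts. It was 1.66-fold lower in iPSCs than in iNSLCs (edgeR adjusted p = 0.0150) and 1.45-fold lower than in fibroblasts (edgeR adjusted p = 0.0151). With total counts the ratio to fibroblasts turned to 0.03 on the log2 scale (edgeR adjusted p = 0.833), so its direction depends on the scaling. In the SAMHD1 row, 24.3% of the exon bases lie within the span of TLDC2 in RefSeq. ADAR, the adenosine deaminase that edits double-stranded RNA, had 34.6 and 34.9 CPM in the clones, 46.8 CPM in iNSLCs and 52.3 CPM in fibroblasts. Its 1.5-fold lower level against fibroblasts (edgeR adjusted p = 0.0142) was lost with total counts (log2 ratio -0.02, edgeR adjusted p = 0.910). Against iNSLCs it was 1.35-fold lower without passing (edgeR adjusted p = 0.0637), although a fit of the 2 compared groups alone placed it just past the threshold (edgeR adjusted p = 0.0494).

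EIF2AK2, the kinase PKR that stops translation upon binding double-stranded RNA, had 57.6 CPM in clone 1, 84.1 CPM in clone 2, 91.0 CPM in iNSLCs and 86.8 CPM in fibroblasts. Clone 2 lay near the other states, and neither difference passed (edgeR adjusted p = 0.320 against iNSLCs and 0.353 against fibroblasts). BST2 (tetherin), which holds budding virions at the cell surface, had 14.6 and 9.68 CPM in the clones, 21.6 CPM in iNSLCs and 9.50 CPM in fibroblasts, and it did not pass either (edgeR adjusted p = 0.103 and 0.382). ISG20, an exonuclease, had 0 and 4 counts in the clones, 18 in iNSLCs and 0 in fibroblasts.

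ISG15 is a ubiquitin-like protein that is joined to other proteins, and USP18 removes it and also dampens receptor signalling. ISG15 itself was low throughout, at 4.64 and 3.82 CPM in the iPSC clones, 9.11 CPM in iNSLCs and 8.85 CPM in fibroblasts. It was 2.16-fold and 2.10-fold lower in iPSCs than in those states (edgeR adjusted p = 0.0452 and 0.0268), calls that DESeq2 did not make (adjusted p = 0.146 and 0.0932). With total counts the call against fibroblasts was also lost (edgeR adjusted p = 0.186). In the ISG15 row, 59.6% of the exon bases lie within the span of LOC110261384 in RefSeq, so reads of that gene may be included. USP18 had 7.77 and 7.21 CPM in the clones, 7.47 CPM in iNSLCs and 23.6 CPM in fibroblasts. The iNSLC level lay between those of the clones (log2 ratio 0.00 ± 0.22 SE, edgeR adjusted p = 0.995), and iPSCs were 3.16-fold lower than fibroblasts (edgeR adjusted p = 0.00289). TRIM25, the ubiquitin ligase that acts on RIGI, had 5.02 and 3.96 CPM in the clones, 16.7 CPM in iNSLCs and 36.8 CPM in fibroblasts. It was 3.75-fold lower in iPSCs than in iNSLCs (edgeR adjusted p = 0.00827) and 8.24-fold lower than in fibroblasts (edgeR adjusted p = 0.000693).

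PARP9, DTX3L and PARP14 are neighbours on chromosome 13 (137809503 to 138001674 from the start of PARP14 to the end of PARP9). PARP9 and DTX3L form an ADP-ribosyltransferase and ubiquitin ligase complex, and PARP14 is a further ADP-ribosyltransferase. PARP14 (ENSSSCG00000011874) had 0.676 and 0.699 CPM in the iPSC clones, 26.3 CPM in iNSLCs and 6.05 CPM in fibroblasts. The iNSLC library stood far above the rest, and iPSCs were 38.0-fold lower than iNSLCs (log2 ratio -5.25 ± 0.26 SE, edgeR adjusted p = 0.00166) and 8.73-fold lower than fibroblasts (edgeR adjusted p = 0.000879). PARP9 had 0.718 and 0.0874 CPM in the clones, 12.5 CPM in iNSLCs and 11.2 CPM in fibroblasts, and DTX3L had 0.253 and 0.0437 CPM, 4.89 CPM and 4.41 CPM. In iPSCs PARP9 was 36.0-fold lower than in iNSLCs and 32.2-fold lower than in fibroblasts (edgeR adjusted p = 0.0192 and 0.00875), and DTX3L was 37.9-fold and 34.2-fold lower (edgeR adjusted p = 0.0148 and 0.00608). The sizes of both rest on few counts and on which clone is read. By the ratio of mean levels to fibroblasts, PARP9 was 128-fold lower without clone 1 and 15.6-fold lower without clone 2, and DTX3L 67.2-fold and 17.4-fold lower, with its 2 counts in clone 2 raised to the floor of 3 counts. Against iNSLCs the same figures were 143-fold and 17.4-fold for PARP9 and 74.5-fold and 19.3-fold for DTX3L.

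IFI44 (ENSSSCG00000003763, chromosome 6, 134633961 to 134650811), an interferon-induced gene, was close to absent from the iPSC clones. It had 0.211 and 0.262 CPM in the iPSC clones, 18.0 CPM in iNSLCs and 17.3 CPM in fibroblasts, so iPSCs were 73.1-fold lower than iNSLCs (log2 ratio -6.19 ± 0.29 SE, edgeR adjusted p = 0.00151) and 70.3-fold lower than fibroblasts (edgeR adjusted p = 0.000273). IFI6, an interferon-induced protein with an antiapoptotic role in human cells, had 4.86 and 4.68 CPM in the clones, 23.5 CPM in iNSLCs and 27.6 CPM in fibroblasts, 4.94-fold and 5.79-fold lower in iPSCs (edgeR adjusted p = 0.00375 and 0.000687). IFI35 had 0.422 and 0.197 CPM in the clones, 5.93 CPM in iNSLCs and 14.8 CPM in fibroblasts, 20.4-fold and 50.9-fold lower in iPSCs (edgeR adjusted p = 0.00632 and 0.000888). Without clone 1 the ratio of mean levels put IFI35 75.3-fold below fibroblasts and 30.2-fold below iNSLCs, and without clone 2 35.1-fold and 14.1-fold.

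CXCL10 (ENSSSCG00000032474, chromosome 8, 71690758 to 71696162), a chemokine that draws T cells, had a pattern of its own. It had 0.507 CPM in iPSC clone 1, 1.62 CPM in clone 2, 12.0 CPM in iNSLCs and 0.324 CPM in fibroblasts. It was high only in the iNSLC library among the 4, and fibroblasts had the lowest level. iPSCs were 10.8-fold lower than iNSLCs (edgeR adjusted p = 0.0243), or 7.40-fold without clone 1 and 23.6-fold without clone 2 by the ratio of mean levels. The 3.38-fold higher level against fibroblasts did not pass (edgeR adjusted p = 0.128), and it was 4.99-fold without clone 1 and 1.56-fold without clone 2. The CXCL10 row lies 100% within the span of ART3 in RefSeq, a span that includes introns.

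**Figure D4:**
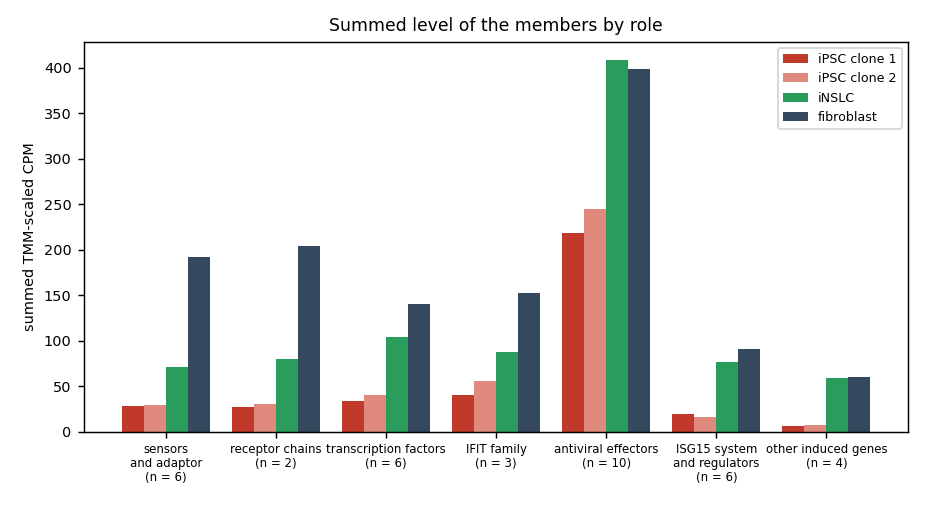
Summed TMM-scaled CPM (y axis) of the genes found in each role group, with bars for iPSC clone 1, iPSC clone 2, iNSLCs and fibroblasts. The sensors and adaptor summed to 27.8, 29.0, 70.8 and 192 CPM, and the antiviral effectors to 218, 245, 408 and 398 CPM.

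The role groups differed in where the iNSLC library stood. The 37 genes together summed to 372 and 423 CPM in iPSC clones 1 and 2, 886 CPM in iNSLCs and 1238 CPM in fibroblasts. As a share of all counts, without TMM scaling, they held 0.0407% and 0.0468% in the clones, 0.0984% in iNSLCs and 0.0918% in fibroblasts, so the order of iNSLCs and fibroblasts turned with the scaling. Sensors and adaptor summed to 27.8 and 29.0 CPM in the clones, 70.8 CPM in iNSLCs and 192 CPM in fibroblasts, and the receptor chains to 26.9, 30.7, 79.6 and 204 CPM. In these groups the iNSLCs lay between the other states. Transcription factors summed to 33.5 and 40.1 CPM in the clones, 104 CPM in iNSLCs and 140 CPM in fibroblasts. The ISG15 group (19.1, 15.8, 76.9 and 90.9 CPM) and the other induced genes (6.0, 6.75, 59.4 and 60.0 CPM) were closer in iNSLCs to fibroblasts.

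iNSLCs and fibroblasts had 1 library each, so no test was made and intervals cover counting error only. Of the 28 genes with at least 10 CPM in any library, each of which also reached that level in 1 of these libraries, 2 were at least 4-fold higher in iNSLCs and 1 was at least 4-fold lower, beside 18.1% of all genes apart by that fold, 9.2% higher and 8.88% lower. CXCL10 was 37.0-fold higher in iNSLCs than in fibroblasts (95% exact interval 22.1 to 66.7), PARP14 was 4.35-fold higher (3.79 to 5.01) and TLR3 was 7.57-fold lower (6.70 to 8.59). MX2 was 3.38-fold higher (2.83 to 4.03), BST2 was 2.28-fold higher (2.01 to 2.58) and IRF1 was 1.72-fold higher (1.59 to 1.86). On the other side, USP18 was 3.16-fold lower (2.73 to 3.68), IFIT1 3.11-fold lower (2.80 to 3.46), IFNAR1 2.92-fold lower (2.74 to 3.10) and RIGI 2.82-fold lower (2.57 to 3.11). With TMM scaling, used for all these ratios, OAS2 had a ratio of 0.980 (0.921 to 1.04) and ZBP1 of 1.02 (0.847 to 1.24). Total counts raise each log2 ratio of iNSLCs over fibroblasts by 0.58, so these levels were alike under TMM scaling only.

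**Figure D5:**
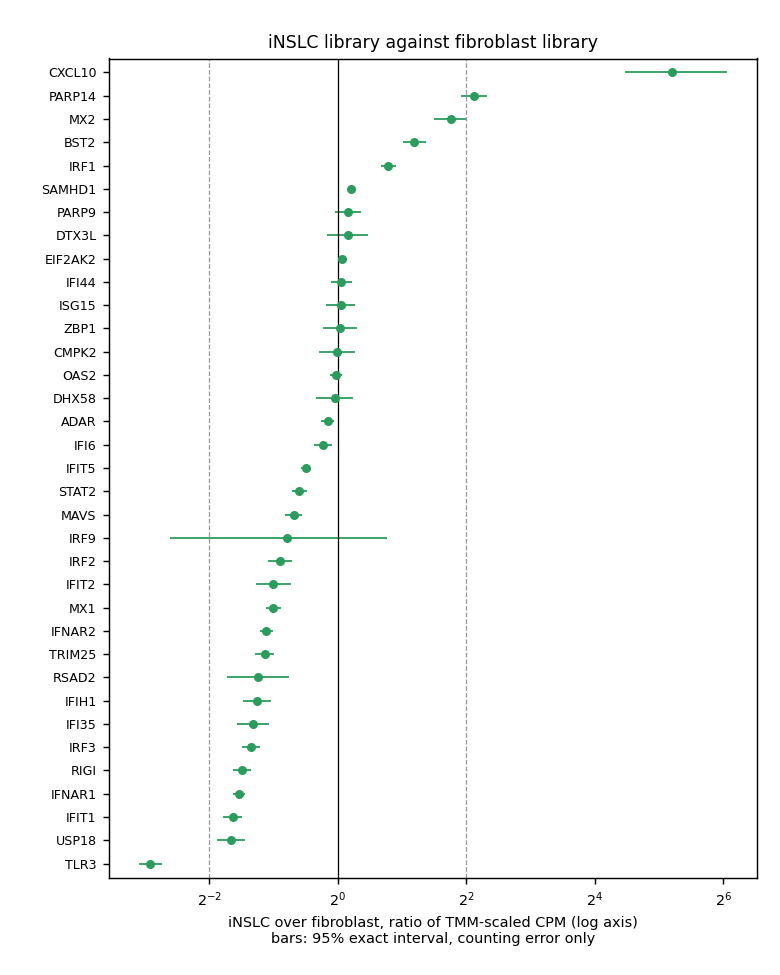
Ratio of TMM-scaled CPM in iNSLCs over fibroblasts (x axis, log scale) for 35 genes, with 95% exact intervals that cover counting error only and dashed lines at a 4-fold difference either way. CXCL10 at 37.0 and PARP14 at 4.35 lie beyond the upper line and TLR3, 7.57-fold lower, beyond the lower one. ISG20 and IRF7 are not drawn because a library had no count.

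The median log2 ratio of iNSLCs over fibroblasts was -0.37 over 34 genes, beside 0.01 over all genes. Of the 34, 22 were below 0, beside 49.7% of all genes. With total counts the medians were 0.22 for the interferon genes and 0.59 for all genes, so the sign of the median reversed while its place below that of all genes did not. DHX58, IFIT5, OAS2, CMPK2, ADAR and IFI6 changed sign with the scaling, and no direction is given for them between these libraries.

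The iPSC clones were then set against each other. Of the 12 genes with at least 10 CPM in a clone, 0 were 4-fold apart, beside 0.357% of all genes at that level, 0.0432% higher and 0.314% lower in clone 2. No test was possible between single libraries. PARP9 was 8.21-fold lower in clone 2 than in clone 1 (95% exact interval 2.68 to 33.5) and DTX3L 5.80-fold lower (1.04 to 58.7), both at under 1 CPM in either clone. CXCL10 was higher in clone 2 by 3.19-fold (1.72 to 6.46) and EIF2AK2 by 1.46-fold (1.37 to 1.55).

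A further list of 70 genes of the same pathway, not members of the set, was read beside it. Of these, 60 had a row and 54 were tested. This list, like the set, was chosen with earlier results of these data known, so its counts are no independent support. In iPSCs 30 of the 54 were lower and 6 higher than in fibroblasts, beside 27.5% and 29.6% of all genes tested. Against iNSLCs 22 were lower and 6 higher, beside 14.1% of all genes in each direction. This list held genes that were highest in the iPSC clones. HERC5, the ligase that attaches ISG15 in human cells, had 340 and 308 CPM in the clones, 43.4 CPM in iNSLCs and 11.5 CPM in fibroblasts. It was 7.46-fold higher in iPSCs than in iNSLCs (edgeR adjusted p = 0.00179) and 28.2-fold higher than in fibroblasts (edgeR adjusted p = 0.000185). SOCS1, an inhibitor of cytokine receptor signalling, had 7.64 and 11.3 CPM in the clones, 3.07 CPM in iNSLCs and 1.64 CPM in fibroblasts, 3.10-fold and 5.79-fold higher in iPSCs (edgeR adjusted p = 0.0411 and 0.00650).

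PNPT1, a mitochondrial RNA exonuclease, was 1.43-fold higher in iPSCs than in iNSLCs (edgeR adjusted p = 0.0474), at 74.3 and 67.8 CPM in the clones, 49.6 CPM in iNSLCs and 50.1 CPM in fibroblasts. LY6E, a membrane protein that restricts coronavirus entry in human cells, had 13.3 and 6.18 CPM in the clones, 4.01 CPM in iNSLCs and 1.47 CPM in fibroblasts. It was 6.60-fold higher in iPSCs than in fibroblasts (edgeR adjusted p = 0.0176), and its 2.42-fold higher level against iNSLCs did not pass (edgeR adjusted p = 0.154). At the other end, RTP4, a regulator of the interferon response, had 0 and 0.219 CPM in the clones (0 and 10 counts), 25.4 CPM in iNSLCs and 32.3 CPM in fibroblasts. Its fitted level was 178-fold lower in iPSCs than in iNSLCs (edgeR adjusted p = 0.00427), a size that rests on those 10 counts. SAMD9, an antiviral factor against poxviruses, had 0.929 and 0.612 CPM in the clones, 27.7 CPM in iNSLCs and 93.8 CPM in fibroblasts, 37.4-fold lower in iPSCs than in iNSLCs (edgeR adjusted p = 0.00148). IFI44L was 21.9-fold lower than in iNSLCs (edgeR adjusted p = 0.00214) and LGALS3BP, a secreted glycoprotein, 28.5-fold lower (edgeR adjusted p = 0.00155).

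Fibroblast transcripts moved with these differences. The summed fibroblast markers given above were lowest in the iPSC clones, higher in iNSLCs and highest in fibroblasts, as the summed interferon genes were with TMM scaling, and the blood and immune markers also had their highest sum in fibroblasts, where CD14 alone held 15.1 of their 22.0 CPM. Of those 8 markers, CD68, CD14, CSF1R and CD79A were highest in fibroblasts, and PTPRC, ITGAM, CD4 and CD3E in an iPSC clone. Endothelial markers (3 of 4 found) summed to 18.4, 27.2, 28.1 and 19.5 CPM, but went opposite ways. PECAM1 had 2.03, 5.20, 21.5 and 19.5 CPM. TEK (12.4, 12.8, 5.51 and 0 CPM) and CDH5 (3.97, 9.22, 1.05 and 0.0432 CPM) were higher in both clones than in iNSLCs and fibroblasts. Keratinocyte markers (2 of 4 found) summed to 5.11 and 0.743 CPM in iPSC clones 1 and 2. Their sum was 15.6 CPM in iNSLCs and 3.15 CPM in fibroblasts. It was highest in iNSLCs, as 12 of the 34 interferon genes were with TMM scaling, and lower in clone 2 than in clone 1. By counting intervals, 5 interferon genes were lower in clone 2, namely RIGI, IFIH1, BST2, PARP9 and DTX3L. Another 10, CXCL10 and EIF2AK2 among them, were higher in clone 2. These intervals cover counting error only, and no share over all genes was taken for either count. The part of other cell types in the result was not tested.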

How the data were processed

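The 4 bulk mRNA-seq libraries (2 iPSC clones, 1 iNSLC culture and 1 fibroblast culture of a pig) were read from per-gene count tables deposited by the authors. Per the submitters' processing notes, Trim Galore 0.4.0, STAR 2.5.3a, featureCounts 1.5.2 and Sscrofa11.1 were used. The deposited counts are whole numbers without normalization, and the 4 single-library tables held the same values as the series table. The strand setting of the counting was not given in the sources used here. Counts of overlapping genes are therefore uncertain. Symbols were matched by Ensembl identifier (14857 genes) or, failing that, by position on RefSeq gene spans (1508 genes, overlap of at least 80% of the shorter span). Coordinates are those of the count table.

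Counts were scaled by TMM (factors 1.09 and 1.11 in iPSC clones 1 and 2, 1.11 in iNSLCs and 0.742 in fibroblasts) and tested with the quasi-likelihood test of edgeR 4.0.16 in R 4.3.3 over all 4 libraries in 3 groups. Genes were kept by filterByExpr (15739 genes), p-values were adjusted by Benjamini-Hochberg over all of them and the threshold was 0.05. The test gives no standard error, so SE was derived as the absolute log2 ratio over the square root of the F statistic. Groups of 1 library each were compared by ratio, with an exact binomial interval at 95% and a 4-fold rule for genes with at least 10 CPM in the higher library. Medians over genes used a floor of 3 counts per library (0.127, 0.0656, 0.105 and 0.0648 CPM in iPSC clone 1, iPSC clone 2, iNSLCs and fibroblasts) and genes with at least 1 CPM in any library. TPM was computed from the counts and exon lengths. Alternatives were DESeq2 1.42.0, other scalings, filters and fits, and leaving out a clone. Members and lists were chosen with earlier results of these data known. Values were given in every library for members with at least 10 CPM in any library and for those described by name, and 8 other pathway genes were named as the 4 lowest and 4 highest ratios of iPSCs over iNSLCs among those with at least 10 CPM in any library. No column was left unmapped.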

Additional observations from a re-analysis of the deposited data

How the results depend on the processing

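The count of interferon genes called against fibroblasts was 30, and 26 to 30 under other scalings, filters, fits and DESeq2. Against iNSLCs it was 24, and 23 to 25. With total counts, SAMHD1 against fibroblasts reversed to a log2 ratio of 0.033, the median over the interferon genes was -1.97 against fibroblasts, and the median of iNSLCs over fibroblasts reversed to 0.22. Total counts move every log2 ratio to fibroblasts by 0.57 for iPSCs and 0.58 for iNSLCs, by construction. With every gene that had any count included, those medians were -2.39 and -0.23. Leaving out 1 iPSC clone gave medians of -2.57 to -2.53 against fibroblasts and -2.29 to -2.20 against iNSLCs. Such a fit has no residual degree of freedom, so calls were not remade. At a 2-fold limit 16 genes were apart between iNSLCs and fibroblasts (4 higher and 12 lower), in place of 3, with no share over all genes taken. With a minimum of 1 CPM, 1 gene, IFIH1, was 4-fold apart between the clones, in place of 0, again with no share over all genes taken. Among other pathway genes called against fibroblasts, 16.7% were higher with TMM and 30.6% with total counts. RLE scaling changed none of the 70 single-gene results, 35 genes in each iPSC comparison.

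No paired analysis was possible because the groups share only replicate number 1, which pairs no samples. A planned count of interferon-responsive promoter motifs was not run. Precision is limited by single iNSLC and fibroblast libraries and, for genes under 1 CPM in the iPSC clones, by counts near the floor of 3.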

Other observations

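The values below were chosen after they had been seen and lie outside the rule for named genes. JAK1, a kinase bound to the interferon receptors, had 41.0 and 26.7 CPM in iPSC clones 1 and 2, 64.5 CPM in iNSLCs and 334 CPM in fibroblasts. IFNGR2, a chain of the interferon gamma receptor, had 1.01 and 0.656 CPM in the clones, 11.9 CPM in iNSLCs and 127 CPM in fibroblasts. GBP1, a guanylate-binding protein gene known as a target of interferon gamma, stood apart from these. It had 8.70 and 10.5 CPM in the clones, 142 CPM in iNSLCs and 10.8 CPM in fibroblasts, and its ratio of iNSLCs over fibroblasts was 13.2 (95% exact interval 12.1 to 14.6, counting error only). IFNB1, the gene of interferon beta, had 0 counts in all 4 libraries.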
